A study of Mus musculus with 32 samples.

Results

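The genes described here are 45 cell cycle and DNA replication genes, out of 45616 gene names on the array. They were listed by symbol, matched to probes through the RefSeq accession of each probe, and all 45 were found. Where a gene had several probes, the probe with the highest mean signal over the arrays stood for it. Of the 45 genes, 20 act at the G1/S boundary and in DNA replication and 25 act in G2 and mitosis. Levels are log2 intensities relative to the 75th percentile of the same array, so a difference of 1 on that scale is a 2-fold difference in signal.

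The 32 one-colour arrays carried total RNA of mice implanted with MCG 101, a transplantable mouse sarcoma line. The 4 groups were stroma from EP2 knockout hosts, stroma from EP2 wild-type hosts, tumor from EP2 knockout hosts and tumor from EP2 wild-type hosts. Every group held 8 arrays, 4 labelled female and 4 labelled male, and every host carried the tumor. EP2, encoded by Ptger2, is a receptor for prostaglandin E2. The labels give no strain, age or time after implantation, and they do not say whether the implanted cells carried EP2. They also do not say whether stroma and tumor with the same number came from the same mouse. The labels do not say that the arrays of a group came from separate animals, so p-values measure the spread between these arrays, and their number limits the precision.

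Cells commit to division when G1 cyclins with their CDKs, among them cyclin E with CDK2, free the E2F factors from the retinoblastoma protein. E2F targets load the MCM helicase at replication origins, supply deoxynucleotides and copy the DNA. Genes of the later G2 and mitotic wave, such as the B-type cyclins, Aurora and Polo kinases and kinesins, are switched on by the B-Myb, MuvB and FOXM1 factors and are held off in resting cells by the DREAM complex. Because these transcripts are made mainly by dividing cells, they are widely read as markers of proliferation in tumors.

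Promoters are printed to show matches to motifs for which the early and late genes are known, though not every printed promoter held those of its group. They are those of 8 of the members whose levels are given below and of Mcm6, the member with most E2F matches. The 250 bases before the start site were searched on both strands for E2F sites (TTNNCGC with C or G at each N), for the cell cycle homology region (CHR, TTTGAA or TTTAAA) and for CCAAT boxes. Of the 45 members, 35 had a promoter entry in RefSeq (GRCm38.p6). E2F matches stood in 7 of 16 G1/S promoters and in 3 of 19 mitotic promoters, against 7.97% of all 27025 promoters of the same length. CHR matches stood in 4 of 16 G1/S promoters and in 12 of 19 mitotic promoters, against 25.5% of all promoters. CCAAT boxes stood in 10 of 16 G1/S and in 17 of 19 mitotic promoters, against 34.5% of all. A CHR and a CCAAT box occurred together in 3 of 16 G1/S promoters and in 11 of 19 mitotic ones, against 8.99% of all. The members were known cell cycle genes when they were chosen, and these counts describe letters in a window only. In 1 mitotic promoter, that of Ccnb1, an E2F match shared bases with a CCAAT box.

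Capitals mark the matches, and each sequence runs 5′ to 3′ up to the base before the start site. The first 4 belong to G1/S genes and the other 5 to mitotic genes. Ccne1 lies at chr7:38107491-38107740 (minus strand), Mcm2 at chr6:88898781-88899030 (minus strand), Pcna at chr2:132253181-132253430 (minus strand) and Mcm6 at chr1:128359706-128359955 (minus strand). Mki67 lies at chr7:135716380-135716629 (minus strand), Top2a at chr11:99024190-99024439 (minus strand), Ccnb1 at chr13:100786487-100786736 (minus strand), Aurka at chr2:172370571-172370820 (minus strand) and Plk1 at chr7:122159185-122159434 (plus strand).
Ccne1: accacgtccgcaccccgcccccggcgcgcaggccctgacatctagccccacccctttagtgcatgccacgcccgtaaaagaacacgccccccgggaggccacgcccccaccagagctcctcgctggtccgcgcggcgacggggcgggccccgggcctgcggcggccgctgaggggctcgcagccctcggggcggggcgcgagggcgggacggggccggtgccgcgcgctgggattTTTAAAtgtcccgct
Mcm2: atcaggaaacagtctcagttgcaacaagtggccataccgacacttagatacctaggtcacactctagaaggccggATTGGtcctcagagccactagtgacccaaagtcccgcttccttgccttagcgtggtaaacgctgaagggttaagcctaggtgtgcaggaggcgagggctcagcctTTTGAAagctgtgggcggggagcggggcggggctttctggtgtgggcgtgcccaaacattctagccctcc
Pcna: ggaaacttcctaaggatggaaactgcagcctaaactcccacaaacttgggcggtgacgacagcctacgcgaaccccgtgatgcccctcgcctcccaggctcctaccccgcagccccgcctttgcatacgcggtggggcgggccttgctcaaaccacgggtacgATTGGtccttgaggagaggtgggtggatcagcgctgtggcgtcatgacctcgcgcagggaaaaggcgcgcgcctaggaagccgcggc
Mcm6: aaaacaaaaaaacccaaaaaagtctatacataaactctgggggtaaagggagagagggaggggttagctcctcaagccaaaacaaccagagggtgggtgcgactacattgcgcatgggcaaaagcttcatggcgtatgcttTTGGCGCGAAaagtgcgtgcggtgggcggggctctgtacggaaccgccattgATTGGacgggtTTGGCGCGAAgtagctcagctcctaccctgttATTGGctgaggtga
Mki67: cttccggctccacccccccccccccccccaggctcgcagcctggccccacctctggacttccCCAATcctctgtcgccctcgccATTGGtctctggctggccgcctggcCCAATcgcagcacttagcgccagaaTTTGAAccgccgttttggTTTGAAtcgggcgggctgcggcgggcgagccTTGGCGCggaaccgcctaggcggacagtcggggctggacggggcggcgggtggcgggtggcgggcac
Top2a: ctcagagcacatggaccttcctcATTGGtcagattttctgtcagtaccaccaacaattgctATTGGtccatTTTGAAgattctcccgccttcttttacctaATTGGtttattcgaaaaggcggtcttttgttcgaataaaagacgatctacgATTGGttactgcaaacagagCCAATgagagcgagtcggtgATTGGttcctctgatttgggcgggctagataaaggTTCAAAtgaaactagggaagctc
Ccnb1: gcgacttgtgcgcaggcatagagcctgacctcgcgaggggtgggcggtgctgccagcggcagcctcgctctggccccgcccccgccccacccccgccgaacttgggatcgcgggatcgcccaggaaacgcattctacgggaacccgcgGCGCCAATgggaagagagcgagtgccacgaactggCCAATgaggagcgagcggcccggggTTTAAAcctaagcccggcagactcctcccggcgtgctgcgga
Aurka: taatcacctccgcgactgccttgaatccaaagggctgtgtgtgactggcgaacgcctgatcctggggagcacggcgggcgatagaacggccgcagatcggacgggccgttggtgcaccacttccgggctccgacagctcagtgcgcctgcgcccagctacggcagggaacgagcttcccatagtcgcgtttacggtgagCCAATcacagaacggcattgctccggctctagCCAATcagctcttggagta
Plk1: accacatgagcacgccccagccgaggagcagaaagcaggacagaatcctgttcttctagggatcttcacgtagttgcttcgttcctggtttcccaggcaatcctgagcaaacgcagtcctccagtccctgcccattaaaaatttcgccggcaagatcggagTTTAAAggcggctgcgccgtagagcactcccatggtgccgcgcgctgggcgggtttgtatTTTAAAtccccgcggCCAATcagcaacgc
The Mcm6 promoter held 4 E2F matches, in overlapping pairs of opposite strand that begin 109 and 106 and again 46 and 43 bases before the start site, beside CCAAT boxes at 57 and 14 bases. Top2a, for DNA topoisomerase II alpha, held 6 CCAAT boxes between 227 and 58 bases before the start and CHR matches at 179 and 23 bases. In Ccnb1, for cyclin B1, CCAAT boxes began 99 and 67 bases and a CHR match 42 bases before the start. Mki67 held 3 CCAAT boxes, 2 CHR matches and 1 E2F match, and Plk1 held 2 CHR matches and a CCAAT box 14 bases from the start. The G1/S promoters of Ccne1, Mcm2 and Pcna held no E2F match, and those of Ccne1 and Mcm2 each held a CHR match. The mitotic promoter of Aurka held 2 CCAAT boxes but no CHR match.

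Several arrays stood apart and bear on every stroma result. The Ptger2 probe ran from -3.84 to -2.38 (median -3.20) on knockout stroma, against -5.65 to -2.58 (median -4.27) on wild-type stroma, and its medians were -3.73 in knockout tumor against -4.81 in wild-type tumor. It was thus not lower in the arrays labelled knockout. Its position with respect to the deletion is not given in the sources used here, so it does not check the labels, and knockout and wild type are the labels of the arrays throughout. On the first principal component, which held 58.8% of the variance, wild-type stroma 65 and 82 lay among the tumor arrays. On 5 arrays the sex-linked genes went against the sex label: wild-type stroma 9, knockout stroma 95 and 99, and knockout tumor 95 and 99. Between 47.8% and 75.2% of probes were well above background, the highest on wild-type tumor 5.

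The mean over a gene group was taken on each array, with every gene expressed as the deviation from its own mean over the 32 arrays. The 20 G1/S genes lay lowest in knockout stroma, at -1.77 ± 0.80, against -0.24 ± 1.58 in wild-type stroma, 1.14 ± 0.12 in knockout tumor and 0.88 ± 0.25 in wild-type tumor (SD, n = 8 each). The 25 mitotic genes followed the same order, at -2.14 ± 1.19 in knockout stroma, -0.46 ± 2.61 in wild-type stroma, 1.47 ± 0.18 in knockout tumor and 1.13 ± 0.31 in wild-type tumor (SD, n = 8 each). The tumors were tightly grouped and the stroma arrays were not. Without array 9, wild-type stroma lay at 0.22 ± 0.95 in G1/S and 0.40 ± 1.03 in mitotic genes (SD, n = 7). In bulk tissue, fewer dividing cells and less of these transcripts per cell cannot be told apart. The share of sarcoma cells in the stroma samples was not tested.

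**Figure D1:**
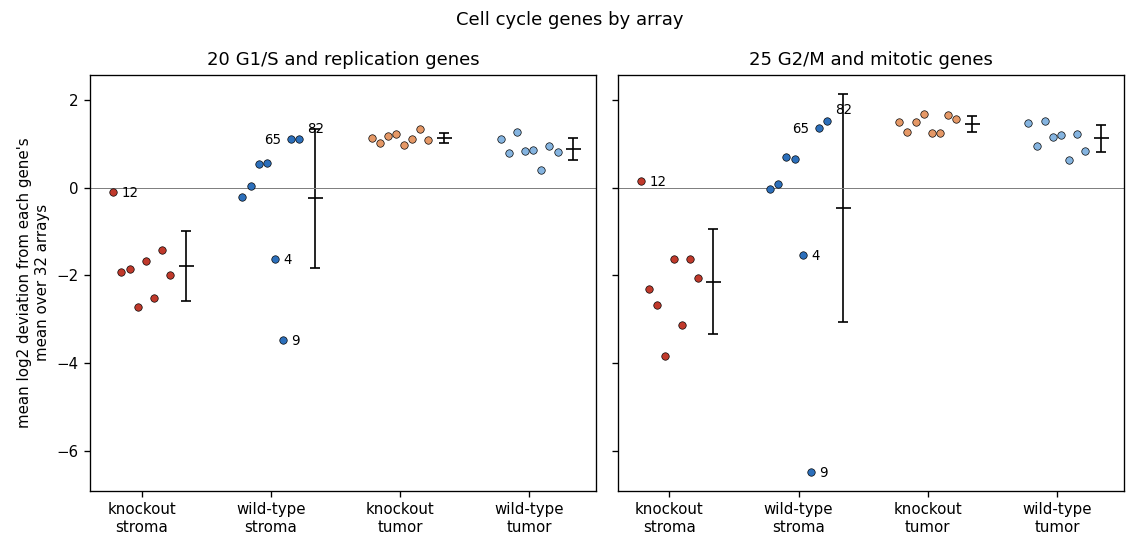
Mean log2 deviation of the 20 G1/S genes (left) and the 25 mitotic genes (right) from each gene's mean over 32 arrays (y axis), with 1 point for each array and the group mean ± SD beside the points (n = 8). Knockout stroma lies below 0 except array 12 for mitotic genes, and wild-type stroma spreads from array 9 (-6.48 for mitotic genes) to arrays 65 and 82 at the level of the tumors.

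Single stroma arrays covered the whole range. Among knockout stroma, array 12 had a G1/S mean of -0.09 and a mitotic mean of 0.15. The other 7 ran from -2.73 (array 59B) to -1.42 (array 95) for G1/S genes and from -3.83 (array 59B) to -1.62 (array 95) for mitotic genes. Array 12 was the highest knockout stroma array for 44 of the 45 genes. Among wild-type stroma, arrays 65 and 82 had G1/S means of 1.11 and 1.11 and mitotic means of 1.37 and 1.53. Arrays 45 and 68 had G1/S means of 0.55 and 0.57 and mitotic means of 0.70 and 0.66. These 4 arrays of 8 lay inside the range of the 16 tumor arrays (0.41 to 1.35 for G1/S and 0.64 to 1.68 for mitotic genes), and 0 of 8 knockout stroma arrays did. Arrays 1 and 5 lay near 0, with G1/S means of -0.21 and 0.04. Array 4 was low in both groups, at -1.62 and -1.52, and array 9 was lower than any knockout stroma array, at -3.48 and -6.48.

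On wild-type stroma 9 the mitotic genes were far lower than the G1/S genes, with a difference of G1/S minus mitotic means of 3.0. Of the mitotic genes 14 of 25 were not well above background on that array, among them Ccnb1, Cdk1 and Top2a, against 1 of 20 G1/S genes, Orc1. It was the lowest wild-type stroma array for 40 members. The exceptions were Ccne2, Cdc45, Pcna, Rrm1 and Tpx2. The same difference averaged 0.37 ± 0.46 in knockout stroma and 0.22 ± 1.13 in the 8 wild-type stroma arrays (SD), or -0.18 ± 0.13 over the 7 wild-type arrays without array 9. It was positive on 6 of 8 knockout stroma arrays, led by 59B (1.10) and 51 (0.83), and on 1 of 8 wild-type stroma arrays. It was negative on all 16 tumor arrays, with means of -0.33 ± 0.11 in knockout and -0.25 ± 0.12 in wild-type tumor (SD, n = 8 each). The mitotic genes thus spanned the wider range, in both directions. Over the 16 stroma arrays the SD of a member had a median of 2.22 among mitotic genes (1.30 to 2.67) and of 1.52 among G1/S genes (0.78 to 2.39). Array 9 is included there. The array means of wild-type stroma had an SD of 2.61 for mitotic and 1.58 for G1/S genes with array 9, and of 1.03 and 0.95 without it. In knockout stroma these SDs were 1.19 and 0.80.

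**Figure D2:**
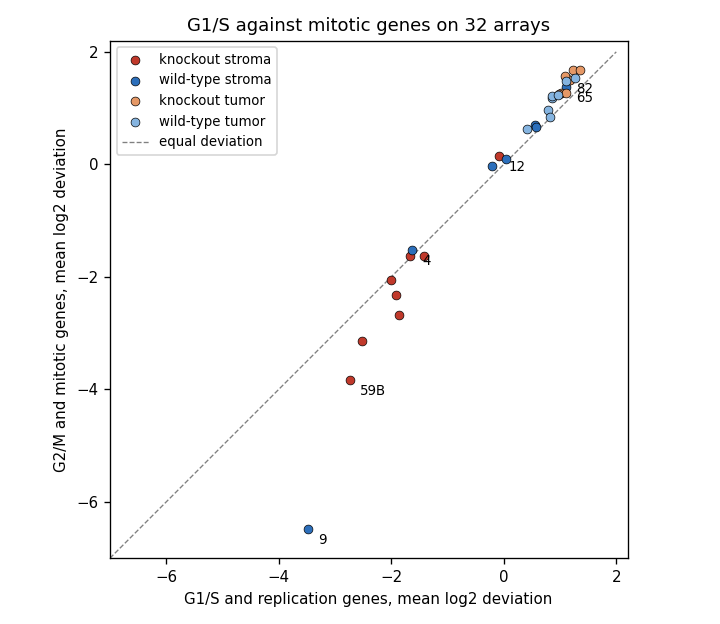
Mean log2 deviation of the mitotic genes (y axis) against that of the G1/S genes (x axis) on each of 32 arrays, coloured by group, with selected stroma arrays numbered. The tumor arrays lie just above the dashed line of equal deviation, and 6 of 8 knockout stroma arrays and wild-type stroma 9 fall below it, array 9 farthest.

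The comparison of arrays labelled knockout with arrays labelled wild type in stroma asks whether loss of the host's EP2 went with a change in these genes around the tumor. All 44 members tested had lower means in knockout stroma, by a median of -1.59 on the log2 scale for the 19 G1/S genes and -1.69 for the 25 mitotic genes, against a median of 0.08 over all 24782 genes tested. None passed limma at an adjusted p under 0.05, and neither did any other gene (0% of 24782). At an unadjusted p under 0.05 were 15 of 19 G1/S and 5 of 25 mitotic genes, against 16.4% of all genes with lower values in knockout and 28.2% in either direction. Cyclin E2 (Ccne2) was not tested, since it was well above background on 2 of 8 knockout and 5 of 8 wild-type stroma arrays. In no tested member were the groups free of overlap, which was the case for 0.113% of all genes with lower values in knockout.

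Rrm1, Mcm7, Mcm4 and Gins1 had the smallest p-values of the G1/S genes. Rrm1, the large subunit of ribonucleotide reductase, ran from 1.53 to 2.67 (median 1.92) on knockout stroma, against 2.01 to 3.96 (median 3.1) on wild-type stroma. Its difference was -1.11 ± 0.29 (SE, adjusted p = 0.120), and that of the small subunit Rrm2 was -1.76 ± 0.91 (SE, adjusted p = 0.207). All 8 knockout arrays lay below the wild-type median, and the groups overlapped through knockout array 12 (2.67) and wild-type arrays 4 (2.01) and 9 (2.35). Together with Tyms, for thymidylate synthase, and Pcna these genes differed by -1.76 to -1.07. The 6 subunits of the MCM helicase, which unwinds DNA at the fork, differed by -1.79 to -1.27. Mcm7 lay at 1.89 to 3.65 (median 2.32) on knockout stroma, against 1.78 to 4.97 (median 4.10) on wild-type stroma, a difference of -1.40 ± 0.43 (SE, adjusted p = 0.120). Mcm2 lay at -0.49 to 1.05 (median -0.17) on knockout and -1.02 to 2.54 (median 1.55) on wild-type stroma. In both genes knockout array 12 was the highest of its group and lay among the wild-type arrays, while wild-type array 9 was the lowest of all stroma arrays.

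The licensing factors Orc1, Cdc6 and Cdt1, which prepare origins in G1, differed by -2.06 to -1.59, and Cdc45, Gins1 and Gins2, which complete the active helicase, by -1.70 to -1.27. Gins1 lay at -0.20 to 1.65 (median 0.27) on knockout stroma, against -0.15 to 2.77 (median 1.98) on wild-type stroma. Its difference of -1.27 ± 0.44 was among the more precise (SE, adjusted p = 0.122). Pcna, the sliding clamp of DNA polymerases, lay at 3.06 to 4.83 (median 3.60) on knockout stroma, against 2.74 to 5.78 (median 5.10) on wild-type stroma. It had the smallest difference of the G1/S genes (-1.07 ± 0.43, SE, adjusted p = 0.138). Ccne1, for cyclin E1, lay at -0.62 to 2.11 (median 0.35) on knockout stroma, against -1.11 to 3.34 (median 2.51) on wild-type stroma, a difference of -1.58 ± 0.58 (SE, adjusted p = 0.128). Of the transcription factors, Mybl2 (B-Myb) differed by -2.34, the largest difference of all members, and E2f1 by -1.16 ± 0.75 with the largest p of the G1/S genes (SE, adjusted p = 0.295).

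Mitotic genes differed by as much, with larger errors. Tpx2, which activates Aurora A on spindle microtubules, had the smallest p of the mitotic genes. It lay at -1.97 to 1.39 (median -0.69) on knockout stroma, against -0.18 to 3.08 (median 1.75) on wild-type stroma, a difference of -2.2 ± 0.56 (SE, adjusted p = 0.120). Aurka, the Aurora A kinase of the spindle poles, lay at 1.27 to 3.61 (median 2.2) on knockout stroma, against 1.33 to 4.99 (median 3.94) on wild-type stroma, a difference of -1.45 ± 0.54 (SE, adjusted p = 0.128). The 5 mitotic kinases and their partners (Aurka, Aurkb, Plk1, Tpx2 and Birc5) differed by -2.2 to -1.45. The kinesins Kif11, Kif20a and Kif23 with Nusap1, a microtubule bundler, differed by -1.91 to -1.45. Kif20a, a motor of cytokinesis, lay at -1.14 to 2.36 (median 0.17) on knockout stroma, against -3.06 to 3.82 (median 2.64) on wild-type stroma (-1.81 ± 0.84, SE, adjusted p = 0.174). Cdk1 with its cyclins Ccna2, Ccnb1 and Ccnb2 and the phosphatases Cdc25c and Cdkn3 differed by -2.18 to -1.51, the checkpoint genes Bub1, Bub1b and Ttk with Cdc20 by -2.04 to -1.27, and the kinetochore genes Cenpa, Cenpe and Cenpf by -1.98 to -1.30.

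Common markers of division spread widely. Mki67, the Ki-67 antigen, lay at 0.60 to 3.49 (median 2.13) on knockout stroma, against -3.77 to 5.28 (median 3.80) on wild-type stroma. Its difference was -1.13 ± 1.02 (SE, adjusted p = 0.450), although all 8 knockout arrays lay below the wild-type median. Array 9 had the lowest wild-type value, and the next lowest wild-type array was at 3.09. Top2a lay at -0.60 to 3.06 (median 1.02) on knockout stroma, against -5.67 to 4.83 (median 3.51) on wild-type stroma (-1.43 ± 1.19, SE, adjusted p = 0.412). Ccnb1 lay at -2.11 to 2.37 (median -0.04) on knockout and -6.88 to 3.78 (median 2.55) on wild-type stroma (-1.51 ± 1.23, SE, adjusted p = 0.406). Plk1, the Polo kinase that drives entry into mitosis, lay at -0.79 to 3.54 (median 0.98) on knockout and -3.94 to 4.85 (median 3.74) on wild-type stroma (-1.69 ± 1.04, SE, adjusted p = 0.272). In each of these 4 genes array 9 was the lowest of all 16 stroma arrays. Foxm1, the transcription factor of the mitotic wave, differed by -1.59. Cenpe, a kinetochore motor, had the largest p of all members (-1.30 ± 1.24, SE, adjusted p = 0.473).

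**Figure D3:**
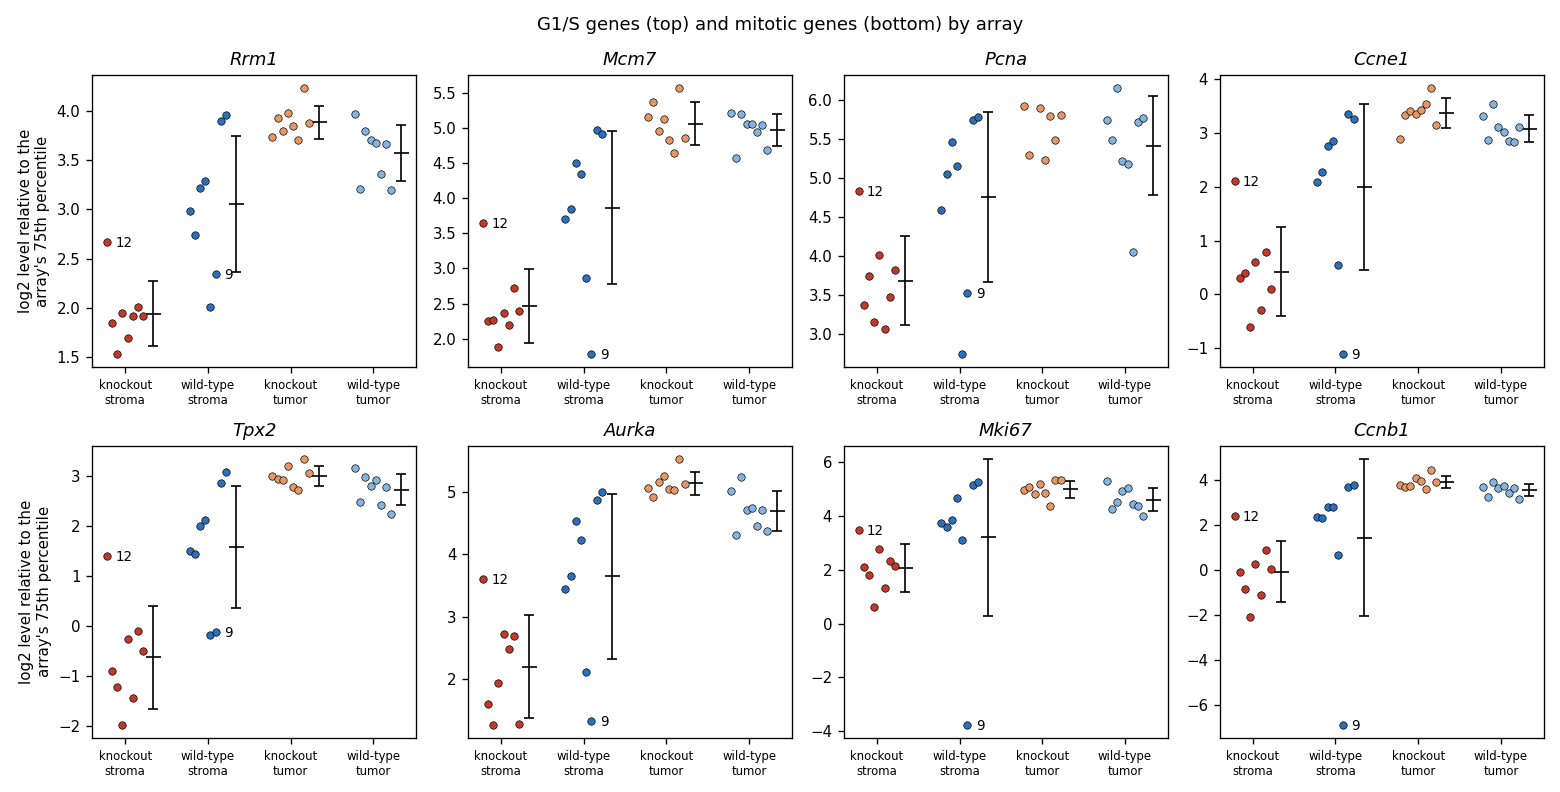
Level on the log2 scale, with the array's 75th percentile at 0 (y axis), of 4 G1/S genes (top) and 4 mitotic genes (bottom) on each array of the 4 groups, with the group mean ± SD beside the points (n = 8). Pcna had no value on knockout tumor 51, so its panel shows no mean ± SD for knockout tumor. Knockout stroma 12 is the highest point of its group in all 8 panels, and wild-type stroma 9 falls far below the other arrays in Mki67 and Ccnb1 but not in Rrm1 and Tpx2.

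These calls turned on a few wild-type stroma arrays. Without array 9, all 44 members passed as lower in knockout stroma, against 18.2% of all genes in that fit. The medians were then -2.02 for G1/S and -2.57 for mitotic genes. Mki67 was at -2.17 ± 0.44 (SE, adjusted p = 0.00655) and Rrm1 at -1.23 ± 0.28 (SE, adjusted p = 0.00784). Without wild-type stroma 4, 8 G1/S and 2 mitotic members passed, against 12.8% of all genes that fell. Without wild-type stroma 65 and 82, the medians shrank to -0.67 and -0.32, 6 of 25 mitotic genes (Ccna2, Ccnb1, Cenpe, Cenpf, Mki67 and Top2a) had higher means in knockout, and no member passed. Without arrays 9, 65 and 82, a fit added after the data were seen, the medians were -1.16 and -1.56, and 0 of 44 members passed, against 0.00403% of all genes. With arrays weighted by their fit to the others, 44 members passed as lower, against 30.0% of all genes. Without the arrays against their sex label 42 passed, against 12.9%, and in a fit of all 32 arrays 21 of 45 passed, against 11.9%.

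Arrays lay on 6 slides, and 5 of them held stroma of both genotypes. Knockout minus wild type within slides 2, 3, 5 and 6 was -2.97, -2.0, -2.10 and -2.25 for the G1/S mean and -4.05, -2.28, -2.83 and -2.74 for the mitotic mean. Slide 2 set knockout stroma 51 against wild-type stroma 65, and slide 6 set knockout stroma 95 against wild-type stroma 45 and 82. Wild-type stroma 65 and 82 are the arrays that lay among the tumor arrays on the first principal component. Slides 3 and 5 held 1 wild-type stroma array each. Slide 4 set knockout stroma 12 against wild-type stroma 9, the extreme arrays of each group, and gave 3.39 and 6.63. With slide as a block the medians over members were -1.26 and -1.27, and no member passed. With slide as a block and without wild-type stroma 65 and 82, a fit chosen after the data were seen, they turned to 0.072 and 0.87. In hosts labelled female alone the medians were -1.84 and -2.52, and in hosts labelled male alone -1.20 and -0.86. No member passed in either.

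Most marker lists of tissue around the tumor had median differences of the opposite sign. The 19 skeletal muscle markers, such as myosins and troponins, had a mean deviation of 3.13 to 4.80 in knockout stroma and -2.36 to 5.30 in wild-type stroma. Their differences were positive for 19 of 19 genes, with a median of 1.88, and 0 passed. Wild-type stroma 65 (-0.95) and 82 (-2.36), high in the members, were the lowest in muscle markers. Wild-type stroma 9 (5.30), low in the members, was the highest of all stroma arrays. Wild-type stroma 45 did not follow that order, with muscle markers at 3.47, inside the knockout range, and members at 0.55 in G1/S and 0.70 in mitotic genes. Arrays 1 (3.94) and 5 (3.56) were also inside the knockout range in muscle markers, with members at -0.21 and 0.04 in G1/S and -0.03 and 0.09 in mitotic genes. All 17 adipocyte markers were also higher in knockout stroma, with a median of 2.0 and 0 passing, and their means ran from 1.46 to 4.14 in knockout and -2.12 to 3.53 in wild-type stroma. The medians of macrophage markers (0.83, 13 of 14 higher), B cell and plasma cell markers (1.42, 8 of 8 tested), endothelial markers (0.60, 14 of 14), T cell markers (0.61, 12 of 12 tested), fibroblast markers (0.55, 8 of 10) and Schwann cell markers (0.89, 8 of 9 tested) were positive, with 0 passing. Neutrophil markers (-0.01, 4 of 8 tested higher) and keratinocyte markers (0.15, 2 of 3 tested) had small medians. The part of these tissues in the members' differences was not tested.

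In tumor the question is the same for the tumor samples, which are bulk tissue and not sarcoma cells alone. All 45 members had higher means in knockout tumor, but by little: the median was 0.23 for the 20 G1/S and 0.33 for the 25 mitotic genes, against 0.00 over all 23749 genes. None passed limma, as none of all genes did (0%), and every member had an adjusted p of 0.976 or above. At an unadjusted p under 0.05 were 5 of 20 G1/S and 10 of 25 mitotic genes, against 1.54% of all genes with higher values in knockout and 3.31% in either direction. All 45 values come from the same arrays and scaling, so they are not independent observations.

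Kif20a had the smallest p, at 3.55 to 4.14 (median 3.70) on knockout tumor, against 3.01 to 3.70 (median 3.36) on wild-type tumor, a difference of 0.41 ± 0.13 (SE, adjusted p = 0.976). Aurka lay at 4.92 to 5.53 (median 5.09) on knockout tumor, against 4.31 to 5.24 (median 4.71) on wild-type tumor (0.45 ± 0.14, SE, adjusted p = 0.976). Gins1, a GINS subunit of the active helicase, lay at 2.59 to 3.15 (median 2.82) on knockout tumor, against 2.05 to 3.07 (median 2.43) on wild-type tumor (0.39 ± 0.14, SE, adjusted p = 0.976). In all 3 genes the groups overlapped. Mki67 lay at 4.36 to 5.35 (median 5.01) on knockout and 4.0 to 5.31 (median 4.49) on wild-type tumor (0.38 ± 0.20, SE), and Top2a at 4.47 to 4.98 (median 4.69) on knockout and 3.48 to 4.78 (median 4.44) on wild-type tumor (0.36 ± 0.16, SE). Pcna lay at 5.23 to 5.92 (median 5.79) on knockout and 4.04 to 6.15 (median 5.61) on wild-type tumor, its lowest value being that of wild-type tumor 9. It had no value on knockout tumor 51. The MCM subunits differed by 0.09 to 0.32, the mitotic kinases and partners by 0.22 to 0.45 and the kinetochore genes by 0.32 to 0.40. Mcm7 was the member nearest to no difference (0.09 ± 0.15, SE), and its sign turned without knockout tumor 95 (-0.0087) and without the arrays that went against their sex label (-0.028).

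The other genes given by array overlapped in the same way. Rrm1 lay at 3.71 to 4.23 (median 3.86) on knockout tumor, against 3.20 to 3.97 (median 3.67) on wild-type tumor (0.31 ± 0.13, SE), and Mcm2 at 2.39 to 3.05 (median 2.45) on knockout and 1.96 to 2.69 (median 2.38) on wild-type tumor (0.22 ± 0.14, SE). Ccne1 lay at 2.89 to 3.84 (median 3.39) on knockout and 2.83 to 3.55 (median 3.06) on wild-type tumor (0.29 ± 0.14, SE). The lowest value of each of these genes was that of a wild-type tumor. Tpx2 lay at 2.72 to 3.34 (median 2.97) on knockout tumor, against 2.23 to 3.15 (median 2.79) on wild-type tumor (0.27 ± 0.14, SE). Ccnb1 lay at 3.58 to 4.41 (median 3.82) on knockout and 3.14 to 3.88 (median 3.63) on wild-type tumor (0.35 ± 0.15, SE), and Plk1 at 4.67 to 5.21 (median 4.80) on knockout and 3.99 to 4.96 (median 4.48) on wild-type tumor (0.37 ± 0.14, SE). Over the 16 tumor arrays the SD of a member had a median of 0.29 among G1/S genes and 0.34 among mitotic genes.

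Of the slides, 3 held tumors of both genotypes. Slide 2 gave -0.16 for the G1/S mean and -0.27 for the mitotic mean, slide 3 gave 0.49 and 0.48, and slide 4 gave 0.41 and 0.57, so 2 of 3 slides pointed up. Each of these slides held 1 knockout tumor. The other knockout tumors lay on slides 1 and 6 without a wild-type tumor. Wild-type tumors 1 and 82 lay on slide 5 without a knockout tumor. On slides 1, 5 and 6 genotype and slide cannot be told apart. With slide as a block the medians over members were 0.29 and 0.36. Muscle markers were higher in knockout tumor for 19 of 19 genes (median 1.78), and neutrophil markers were lower for 8 of 8 tested (median -1.36), with 0 passing in either list and their part in the members' values not tested.

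**Figure D4:**
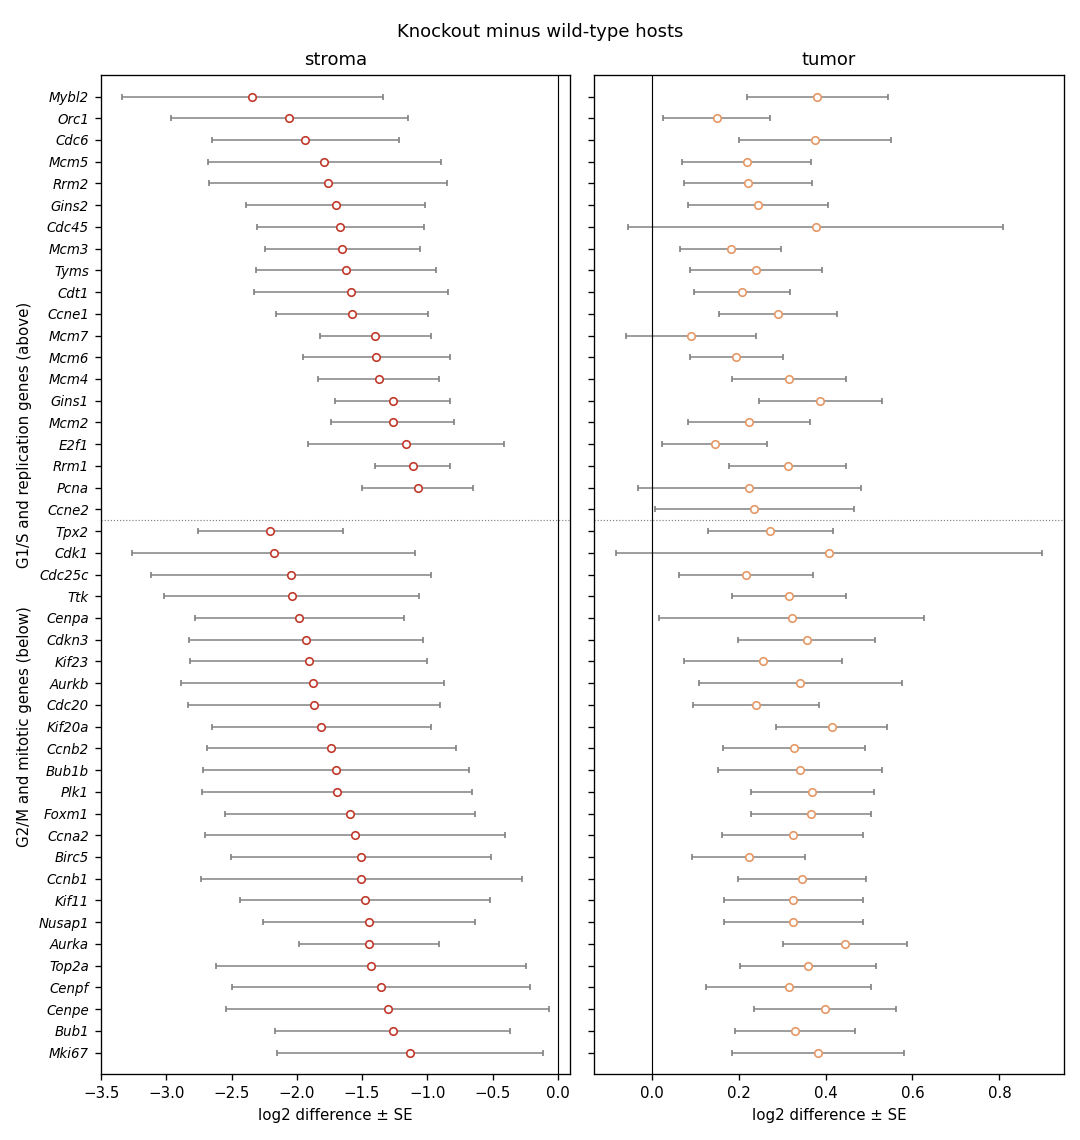
Log2 difference of knockout minus wild-type hosts ± SE for each member in stroma (left) and tumor (right), on x axes of different scale, with G1/S genes above and mitotic genes below the dotted line (n = 8 arrays per group). Open points did not pass limma; all lie below 0 in stroma and above 0 in tumor, and Ccne2 was not tested in stroma.

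The difference between these genotype effects was tested directly in the fit of all 32 arrays. The knockout minus wild-type difference was lower in stroma than in tumor for all 45 members, by a median of -1.81 for G1/S and -2.04 for mitotic genes, against 0.09 over 27120 genes. None passed, as none of all genes did (0%). At an unadjusted p under 0.05 were 19 of 20 G1/S and 10 of 25 mitotic genes, against 12.8% of all genes in that direction and 21.1% in either. Rrm1 had the smallest p (-1.43 ± 0.32, SE, adjusted p = 0.117), and so had Tpx2 among mitotic genes (-2.48 ± 0.60, SE, adjusted p = 0.117). Cenpe (-1.70 ± 1.30, SE, adjusted p = 0.440) and Cenpf had the largest. Without wild-type stroma 9, 43 members passed, against 12.1% of all genes as lower. Without wild-type stroma 4, 12 passed, against 7.10%, and without knockout stroma 12, 8 passed, against 3.06%.

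Stroma and tumor were compared within each genotype to ask how far division transcripts of the tissue around the tumor lay below those of the tumor. In knockout hosts all 45 members fell in stroma relative to tumor, against 33.0% of all genes that fell. The median was -2.98 for G1/S and -3.61 for mitotic genes, against -0.06 over 27120 genes. The groups did not overlap for 18 of 20 G1/S and 23 of 25 mitotic genes, against 18.3% of all genes with lower values in stroma.

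Rrm1 fell by 1.94 ± 0.23 on the log2 scale (SE, adjusted p = 4.60e-07), a 3.84-fold lower signal, with 1.53 to 2.67 (median 1.92) on knockout stroma, against 3.71 to 4.23 (median 3.86) on knockout tumor. Mcm7 fell by 2.60 (adjusted p = 7.33e-07), with 1.89 to 3.65 (median 2.32) on knockout stroma, against 4.65 to 5.57 (median 5.04) on knockout tumor. Mcm2 lay at -0.49 to 1.05 (median -0.17) on knockout stroma, against 2.39 to 3.05 (median 2.45) on knockout tumor (-2.55 ± 0.36, SE). Every knockout stroma array lay below every knockout tumor array in these 3 genes. Tpx2 fell by 3.61 (adjusted p = 4.62e-07), a 12.2-fold lower signal, with -1.97 to 1.39 (median -0.69) on knockout stroma, against 2.72 to 3.34 (median 2.97) on knockout tumor. Aurka lay at 1.27 to 3.61 (median 2.2) on knockout stroma, against 4.92 to 5.53 (median 5.09) on knockout tumor, a fall of 2.94 (adjusted p = 1.53e-06). Mki67 had the largest p of the mitotic genes, with a difference of -2.92 ± 0.77 (SE, adjusted p = 0.00185). By role, the falls of the MCM subunits ran over -3.64 to -2.55, those of the licensing factors over -3.75 to -3.28, those of the mitotic cyclins with Cdk1 and its phosphatases over -4.14 to -3.61 and those of the checkpoint genes with Cdc20 over -4.13 to -3.15. Mybl2 fell most (-4.39). Ccne2 (-1.78) was well above background on 2 of 8 knockout stroma and 8 of 8 knockout tumor arrays, so background limits the size of its difference.

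In wild-type hosts all 45 members again had lower means in stroma, but the median was -1.11 for G1/S and -1.62 for mitotic genes, against -0.21 over all genes. Of the 45, 5 fell at an adjusted p under 0.05, against 18.3% of all 27120 genes that fell, and 37 had an unadjusted p under 0.05, against 28.1% of all genes with lower values. Those that fell were Mcm7 (-1.11 ± 0.33, SE, adjusted p = 0.0148), Mcm2 (-1.06 ± 0.36, adjusted p = 0.0275), Mcm3 (-1.20 ± 0.44, adjusted p = 0.0420), the licensing factor Cdt1 (-1.49 ± 0.55, adjusted p = 0.0434) and Tpx2 (-1.13 ± 0.42, adjusted p = 0.0433). Mcm7 lay at 1.78 to 4.97 (median 4.10) on wild-type stroma, against 4.57 to 5.21 (median 5.05) on wild-type tumor, and all 8 stroma arrays lay below the tumor median. Tpx2 lay at -0.18 to 3.08 (median 1.75) on wild-type stroma, against 2.23 to 3.15 (median 2.79) on wild-type tumor, with arrays 65 and 82 above the tumor median. The ranges of stroma and tumor overlapped for all 45 members, while 0.616% of all genes had lower values in stroma with no overlap. Mki67 (-1.41 ± 0.77, SE, adjusted p = 0.157) and Cdk1 (-1.38 ± 0.88, adjusted p = 0.225) had the largest p-values of the mitotic genes. Without wild-type stroma 65 and 82, 44 of 45 members fell, against 28.8% of all genes that fell, and with slide as a block 34 fell, against 19.6%. Leaving out 1 array at a time, 40 members fell without wild-type stroma 65, against 22.9% of all genes, and 42 without wild-type stroma 82, against 24.8%. Without wild-type stroma 1, 4, 5 or 9, 1 member fell, against 12.7% to 14.3% of all genes. Leaving out wild-type tumor 1, 4, 45, 65 or 68 left 2, against 14.0% to 17.7%, and leaving out wild-type tumor 82 left 3, against 15.2%. Without wild-type stroma 9 the medians were -0.67 and -0.73.

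Within the slides that held both tissues, 4 for each genotype, stroma minus tumor was negative each time. For mitotic means it ran from -3.94 to -1.37 in knockout and from -7.42 to -0.16 in wild-type hosts, the last on slide 2, which held wild-type stroma 65. Muscle markers ran the other way, rising in stroma for 19 of 19 genes in each genotype (medians 6.57 in knockout and 6.32 in wild-type hosts), against 26.3% of all genes that rose in knockout and 11.9% in wild-type hosts, and their part in the members' differences was not tested. The comparisons of genotype and of tissue share arrays, so their values stand side by side and are not independent of each other.

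**Figure D5:**
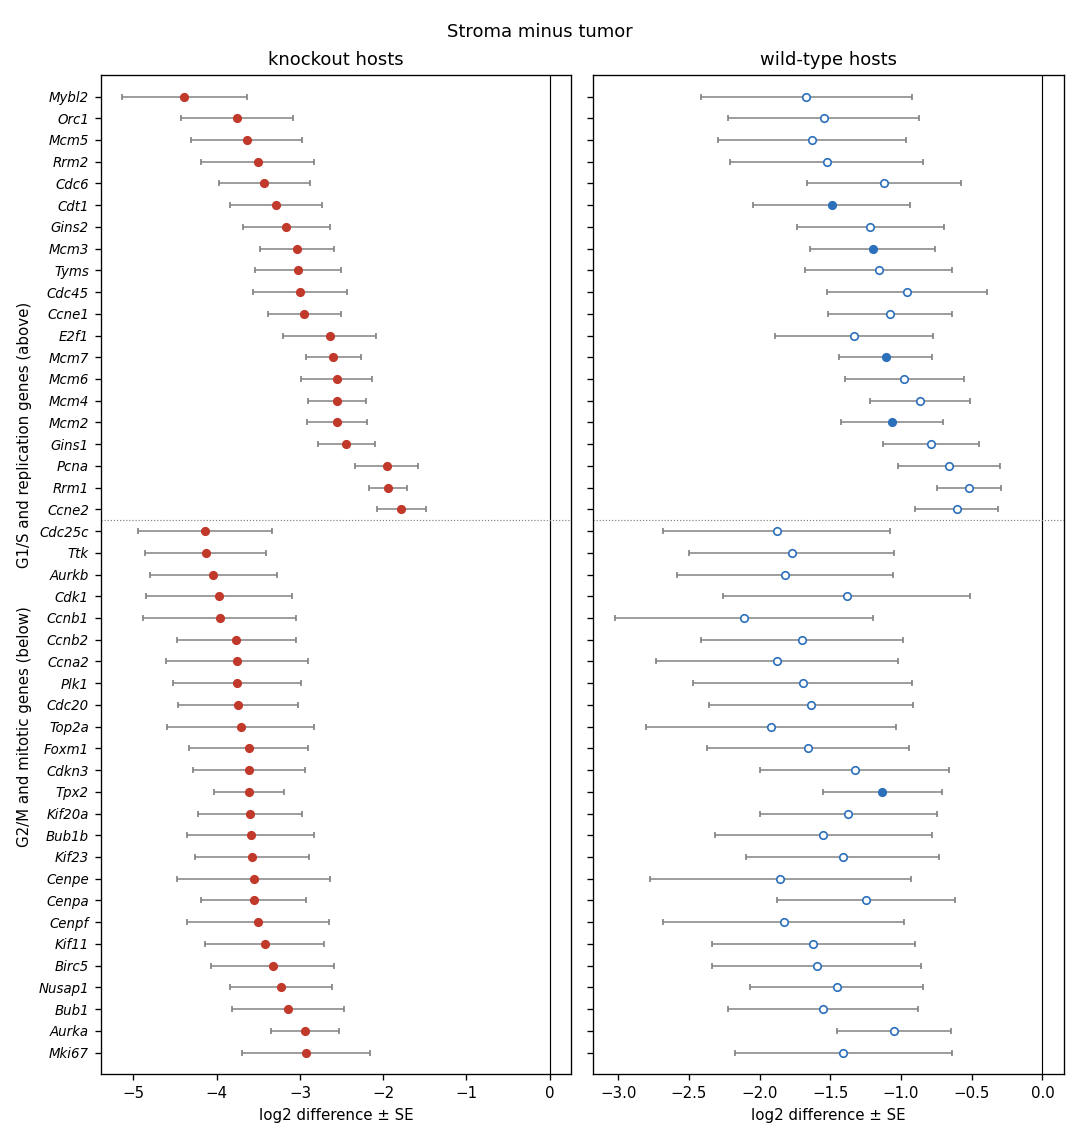
Log2 difference of stroma minus tumor ± SE for each member in knockout hosts (left) and wild-type hosts (right), with G1/S genes above and mitotic genes below the dotted line (n = 8 arrays per group). Filled points passed limma at an adjusted p under 0.05, which were all 45 members in knockout hosts and 5 in wild-type hosts.

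Sex of the host, as labelled, was compared within each tissue. In stroma all 44 tested members had lower means in males (median -0.68 for G1/S and -0.85 for mitotic genes), and none passed, as none of all genes did (0%). Of the members 0 had an unadjusted p under 0.05, against 2.25% of all genes. In tumor 40 of 45 were lower in males (medians -0.08 and -0.15), and the exceptions were Rrm2, Mcm6, Mybl2, Cenpe and Ccnb1. No member passed or had an unadjusted p under 0.05, against 7.23% of all genes. Without wild-type stroma 9 the medians in stroma were -0.14 for G1/S and 0.11 for mitotic genes. With array weights the medians there were 0.46 and 0.67. Sex-linked genes went against the male label on wild-type stroma 9, knockout stroma 95 and 99, and knockout tumor 95 and 99. Both comparisons thus follow the labels and not sex as read from those genes.

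Other genes of the same pathways were taken from lists of cell cycle genes outside the 45. In knockout against wild-type stroma, 33 of 33 further replication genes had lower means (median -1.37), as had 38 of 39 further mitotic genes (median -1.64) and 17 of 17 checkpoint genes (median -1.16), with none passing. Pole, the catalytic subunit of DNA polymerase epsilon, had -1.99 ± 0.48 (SE, adjusted p = 0.120). The mitotic kinesin Kif18b had -2.23 ± 0.95 and the cytokinesis protein anillin (Anln) -2.19 ± 0.81. Pttg1, for securin, was the mitotic gene with a higher mean (0.48 ± 0.42, adjusted p = 0.434). In the checkpoint list Fbxo5, an inhibitor of the anaphase-promoting complex, had -1.84 ± 0.74.

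Genes that gate entry into the cycle were mixed. Of 21 G1 cyclins, CDKs and RB-E2F genes, 17 had lower means in knockout stroma (median -0.81), led by E2f8 (-1.78 ± 0.74) and Myc (-1.74 ± 0.55, adjusted p = 0.120), and 4 had higher ones, led by the retinoblastoma gene Rb1 (1.35 ± 0.46, adjusted p = 0.122) and E2f2 (0.56 ± 0.27). The 16 CDK inhibitors and quiescence genes split 8 to 8 (median 0.00), from Cdkn2a (-2.2 ± 1.15) and Gas2 (-1.23 ± 0.32) to Ccng1 (1.23 ± 0.57) and Cdkn1c, for p57 (1.40 ± 0.57). None passed. In knockout stroma against knockout tumor the same lists had many calls: 32 of 33 replication genes fell, 38 of 39 mitotic genes fell and Pttg1 rose (0.92 ± 0.32, adjusted p = 0.0169), and 17 of 17 checkpoint genes fell, against 33.0% of all genes that fell and 26.3% that rose. Of the G1 list 15 fell and 4 rose, with E2f8 (-3.46 ± 0.56) and E2f7 (-3.23 ± 0.47) the lowest and Rb1 (2.45 ± 0.34) and Mycn (1.56 ± 0.59) the highest. The inhibitor list split 7 fallen to 7 risen: Cdkn2a (-4.67 ± 0.87) and Gas1 (-1.60 ± 0.32) fell, while Ccng1 (2.97 ± 0.45) and Cdkn1c (3.13 ± 0.47) rose.

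In wild-type hosts the calls of stroma against tumor were fewer, with 9 of 33 replication, 7 of 39 mitotic and 7 of 17 checkpoint genes fallen, against 18.3% of all genes that fell and 11.9% that rose. Myc (-1.44 ± 0.42, SE, adjusted p = 0.0128) fell and Rb1 (1.19 ± 0.34, adjusted p = 0.0131) rose. Among inhibitors 5 fell and 5 rose, led by Cdkn2a (-2.44 ± 0.87) and Btg1 (-1.24 ± 0.23) and by Btg2 (2.22 ± 0.57) and Ccng1 (2.21 ± 0.45). In knockout against wild-type tumor, 32 of 33 replication and 38 of 39 mitotic genes had higher means (medians 0.22 and 0.29), with 0 passing. Sgo1, which guards centromere cohesion, had 0.41 ± 0.13 and the spindle protein Hmmr 0.45 ± 0.18, and the exceptions were the helicase subunit Gins3 (-0.12 ± 0.24) and the CENP-A chaperone Hjurp (-0.07 ± 0.17).

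Of the 45 members, 21 had more than 1 probe. In stroma by genotype and in stroma against tumor, the other probes gave the sign of the chosen probe for all 21. In tumor by genotype a probe of Mybl2 gave the other sign, and that probe was well above background on 0 of 32 arrays.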

How the data were processed

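RNA of 32 samples was measured on one-colour mouse arrays. Per the file headers, the authors' deposited files were written by Agilent Feature Extraction 10.7.3.1 and hold 1 intensity per spot, already background-subtracted (the processed signal). The authors' deposited series table holds log2 values. It was used as an alternative. Of its values, 99.486% for stroma and 98.724% for tumor lay within 0.01 of the scanner values scaled to the 75th percentile and centred on each probe's median over the arrays of the tissue, so its scale, centring and direction were found from the files. Its array medians ran from -0.3145 to 0.5627. Control spots and outlier flags were left out, spots of a probe were averaged, and log2 of the intensity minus its 75th percentile per array was taken. Of 56605 probes, 32994 were named by RefSeq accession and the rest by the name in the file. The files give no mean spot signal, so the normexp alternative used the median spot signal.

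A gene entered a fit when its probe was well above background on at least 8 of its arrays, with at most 2 missing values. Differences were tested with limma 3.58.1 in R 4.3.3 (lmFit and eBayes, Benjamini-Hochberg adjustment over all genes, threshold 0.05), two-sided, with a mean for each group and labelled sex and the sexes averaged, within a tissue for genotype and over all arrays for tissue and for genotype by tissue. The steps were tested on simulated data with known changes. For stroma by genotype, 19% of genes changed by 1 and 69% of those changed by 2 on the log2 scale were recovered among 24674 genes. For tumor by genotype, the shares were 58% and 89% among 23550 genes. The simulated noise was drawn independently for each gene and array, while the members shifted together on single arrays. These shares therefore do not give the share of members that would be recovered. The members and lists were chosen with earlier results of these data known. All 45 members count as named. Levels by group are given for Mki67, Top2a, Mcm2, Pcna, Ccne1, Ccnb1, Aurka and Plk1 and, per comparison, for the member of each gene group with the smallest p. Other members are given by role. The 4 smallest and 2 largest p-values of each group may be given in full, as may the 2 most positive and 2 most negative genes of each other list, some of which are not reported here. Alternatives were other scalings, filters and probe summaries, array weights, slide and number blocks, and leaving out arrays.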

Additional observations from a re-analysis of the deposited data

Results flagged for a closer look

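In groups of 8 arrays, the extreme array's gap to its neighbour was compared with the whole range. Of 64 groups tested 10 passed Dixon's 95% value of 0.526, and chance passes about 1 in 20 for a single group. The groups draw on the same arrays and on related genes, so their passes are not independent. That rate is therefore no measure of their number. Wild-type stroma 9 gave 7 of them, all in mitotic genes or their summaries. Its mitotic mean was -6.48 against -1.52 on the next array, and its G1/S minus mitotic difference was 3.0 against -0.05. On that array Mki67 was at -3.77 (next 3.09), Top2a at -5.67 (next 1.16), Ccnb1 at -6.88 (next 0.65), Plk1 at -3.94 (next 1.72) and Kif20a at -3.06 (next 0.71).

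The other 3 lay in other groups. Mcm2 on knockout tumor 95 was at 3.05 (next 2.69), Pcna on wild-type tumor 9 was at 4.04 (next 5.18), and Rrm1 on knockout stroma 12 was at 2.67 (next 2.01).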

How the results depend on the processing

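In stroma by genotype, array weights called 16002 genes and 44 members (G1/S median -2.59), leaving out the arrays against their sex label 5579 and 42, a fit of all arrays 4336 and 21, and leaving out wild-type stroma 9, 65 and 82 called 1 gene. Without wild-type stroma 65 and 82 the G1/S median was -0.67, and Mki67 (0.26), Top2a (0.32) and Ccnb1 (0.20) turned positive. With slide as a block too, a setting added after seeing the data, like the removal of arrays 9, 65 and 82, the medians were 0.072 for G1/S and 0.87 for mitotic genes. Mki67 (1.53), Top2a (1.69), Mcm2 (0.044), Ccne1 (0.072), Ccnb1 (1.72), Aurka (0.0049), Plk1 (1.09) and Kif20a (0.61) turned positive there. In tumor, Mcm7 was at -0.028 without the arrays against their sex label and, with single arrays left out, between -0.0087 (without knockout tumor 95) and 0.15 (without knockout tumor 81). Leaving out single arrays gave 0 to 8333 genes and 0 to 44 members in stroma by genotype, with medians of -2.02 to -1.27 for G1/S and -2.57 to -1.19 for mitotic genes.

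For genotype by tissue, array weights called 13001 genes and 44 members (G1/S median -2.71), leaving out the arrays against their sex label called 2138 and 43, and without wild-type stroma 65 and 82 the G1/S median was -0.90. Single arrays left out gave 0 to 5282 genes, 0 to 43 members and medians of -2.27 to -1.48 and -2.95 to -1.56. For wild-type stroma against tumor, a filter on all arrays called 5318 of 16860 genes tested. Leaving out wild-type stroma 65 and 82 called 12887 genes and 44 members (G1/S median -2.04), against 28.8% of all genes as lower. Leaving out the arrays against their sex label called 5434 genes and 1 member, against 11.3% of all genes as lower. Of the members, normexp called 10 as lower (17.4% of all genes), bright probes for the percentile 2 (15.5%), no filter 2 (8.06%), array weights 1 (15.5%) and slide as a block 34 (19.6%). Single arrays left out gave 6091 to 10707 genes, 1 to 42 members and medians of -1.43 to -0.67 and -2.08 to -0.73. For knockout stroma against tumor the filter on all arrays called 10450 of 16860 genes tested and 28 members. That filter left members untested that were not well above background on every array. On wild-type stroma 9, 30 of the 45 members were well above it, so the lower count is not a loss of calls among members tested.

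For sex in stroma, array weights called 1519 genes and turned the medians to 0.46 and 0.67. Leaving out the arrays against their sex label called 6 genes, and leaving out wild-type stroma 9, 65 and 82 called 482 of 24812 genes and 1 member. Leaving out 65 and 82 with slide as a block gave -1.86 and -2.72, and single arrays left out gave -0.99 to -0.14 and -1.33 to 0.11, the last without wild-type stroma 9. For sex in tumor, array weights called 20 genes, the arrays against their sex label left out 26, and single arrays left out 0 to 52. The cause of these shifts was not tested.

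Stroma and tumor arrays share numbers, and the labels do not say whether these mark the same mouse. Of 15 such pairs 8 had a correlation over 0.1 (-0.122 to 0.357) and 4 were closest to their own number. For every number except 4, the correlation was above the median with the other tumors. Sex-linked genes differed between the wild-type arrays numbered 9. Xist was at -2.24 on stroma 9 and -5.97 on tumor 9. The mean of the Y-linked Ddx3y, Eif2s3y, Kdm5d and Uty was -6.79 and -3.14. By these genes number 9 did not mark a single mouse, though the fixed replicate block below took it as a pair. For the other numbers these values do not settle whether they mark pairs, and the main fits took no pairing. With a fixed replicate block, stroma against tumor called 14964 genes and 45 members in knockout and 7812 and 5 in wild-type hosts. With a random replicate block it called 16659 and 45 in knockout and 9554 and 11 in wild-type hosts, and genotype by tissue called 0 genes. Of the recomputed list summaries and counts, 1003 stayed close to the reported value, 62 moved and 5 turned sign. Of the recomputed values of single genes, 2484 kept their sign and side of the threshold, 152 newly passed, 21 no longer passed and 13 turned sign. The number of arrays and their uneven stroma limit the precision.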
